A study of Mus musculus with 6 samples.

Results

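The proteasome genes of mouse ear epidermis were described here: the subunits of the 26S proteasome, its activators and inhibitor, and the chaperones that build it. They were taken as every row of the transcript table whose symbol starts with Psma, Psmb, Psmc, Psmd, Psme, Psmf or Psmg, and the values of a symbol's transcripts were summed. The rule gave 50 genes of 20522 in the table, with 59 of 37903 transcripts. One of the 50, Psmc3ip, encodes a factor of meiotic recombination and no proteasome part, so it was kept in the counts and left out of every sum. Of the 50 genes, 47 averaged 1 TPM or more over the 6 libraries and were tested. The other 3 were Psma8, a testis form of an alpha subunit, Psmb11, the catalytic subunit of the thymus, and Psme2b, a near-copy of Psme2.

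The proteasome degrades proteins that carry ubiquitin chains. Its 20S core is a barrel of stacked alpha and beta rings with the cutting sites inside, on the subunits Psmb5, Psmb6 and Psmb7, which interferon-gamma replaces by Psmb8, Psmb9 and Psmb10 in the immunoproteasome of leukocytes and other cells. The 19S cap sits on the core: its base holds a ring of ATPases that unfolds the substrate, and its lid removes the ubiquitin. In the epidermis, keratinocytes lose their nucleus and organelles as they pass through the granular layer into the cornified layer, and the proteasome is one of the systems of protein breakdown in these cells.

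RNA was sequenced from the ear epidermis of 8-week-old female mice of the strain C57BL6/N. ETA sheets gave 3 libraries: they are upper epidermal layers that came away after exfoliative toxin A, which is a protease of Staphylococcus that cuts desmoglein 1. Epidermal sheets, lifted whole with dispase, gave the other 3. Both kinds of sheet were isolated from split ears at 37 °C, and no other treatment or allele is named in the labels. Toxin or dispase went with the layer, so an effect of layer and one of solution cannot be told apart. Whether different animals gave the sheets is not stated, so each p-value measures the spread between these samples alone, and that spread may be technical.

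Values are TPM, length-scaled shares with a sum of 1000000 per library, which hold no sequencing depth, so the precision of a single value is unknown. Groups followed the sample titles through the library number. In 2 of the 6 table columns the kind of sheet in the header differs from the title with that number. When groups followed the header names, limma called 0 of 11683 genes and 0 of the 47 tested proteasome genes at an adjusted p under 0.05, against 87 genes and 0 proteasome genes at an unadjusted p under 0.05. Under the titles the basal keratinocyte markers Krt5, Krt14, Itga6, Col17a1 and Trp63 summed to 130.2 to 213 TPM in ETA sheets, against 14536 to 16941 TPM in epidermal sheets. The granular markers Lor, Asprv1, Casp14, Klk7, Cdsn and Tgm1 summed to 102745 to 116609 TPM, against 4953 to 7086 TPM. ETA sheet replicate 2 stood apart: 209 of the tested genes that averaged 10 TPM or more over all libraries were listed at 0 in it, against 12 to 30 in the other 5 libraries.

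Promoter sequence is shown for 4 genes on which the results turn. Psmd8 was the only proteasome gene called higher in ETA sheets as deposited, Psmb5 stands for the core subunits that were lower, and Psme1 and Psme2 encode an activator pair that was lower under each of the 4 scalings tried. The windows run from 250 bases before to 50 after the gene start, 5′ to 3′ on the gene's strand, from RefSeq for the build GRCm38.p6. The expression values rest on mm9, per the submitters' processing notes. Capitals mark TGANNNNGC on either strand, the core of the antioxidant response element, to which the factors encoded by Nfe2l1 and Nfe2l2 bind at proteasome genes.
Psmd8, chr7:29180624-29180923, minus strand: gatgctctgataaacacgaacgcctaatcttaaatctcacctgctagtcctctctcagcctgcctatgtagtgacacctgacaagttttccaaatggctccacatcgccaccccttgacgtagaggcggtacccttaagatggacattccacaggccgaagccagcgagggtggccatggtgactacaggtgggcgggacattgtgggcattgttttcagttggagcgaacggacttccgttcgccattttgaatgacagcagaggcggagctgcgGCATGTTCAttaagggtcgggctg
Psmb5, chr14:54617946-54618245, minus strand: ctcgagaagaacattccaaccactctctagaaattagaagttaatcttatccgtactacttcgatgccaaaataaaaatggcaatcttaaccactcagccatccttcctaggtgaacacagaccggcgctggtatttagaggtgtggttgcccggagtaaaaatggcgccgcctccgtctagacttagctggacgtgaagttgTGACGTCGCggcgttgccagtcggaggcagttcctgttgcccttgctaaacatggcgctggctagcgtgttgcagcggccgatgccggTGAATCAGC
Psme1, chr14:55578244-55578543, plus strand: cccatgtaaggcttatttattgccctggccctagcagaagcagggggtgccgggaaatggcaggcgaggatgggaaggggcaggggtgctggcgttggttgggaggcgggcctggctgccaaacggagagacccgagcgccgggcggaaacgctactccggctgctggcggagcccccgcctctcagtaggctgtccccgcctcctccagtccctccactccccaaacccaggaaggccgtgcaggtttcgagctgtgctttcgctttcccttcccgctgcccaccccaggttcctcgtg
Psme2, 1 of 2 windows, chr14:55591052-55591351, minus strand: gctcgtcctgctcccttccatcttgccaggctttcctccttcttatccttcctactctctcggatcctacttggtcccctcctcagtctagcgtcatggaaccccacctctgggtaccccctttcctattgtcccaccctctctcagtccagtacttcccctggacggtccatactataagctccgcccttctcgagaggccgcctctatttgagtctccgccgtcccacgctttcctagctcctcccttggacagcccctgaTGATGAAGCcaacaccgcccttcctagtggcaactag

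The Psmb5 window held 2 matches to TGANNNNGC, one before the start and one at its downstream end, Psmd8 held 1 just downstream of the start on the other strand, Psme2 held 1, and Psme1 held none. Of the 50 genes 42 had an entry, with 45 windows in all. TGANNNNGC stood in 57.8% of these windows and in 41.3% of all 32851 windows of the table. The ETS core CCGGAA stood in 48.9% of the proteasome windows and in 14.9% of all windows. The CCAAT box stood in 33.3%, against 37.4% of all windows, and TTCNNNGAA, the interferon-gamma activated site, in 6.67%, against 8.30%. Each motif was searched on both strands, and no occurrence was counted out where motifs overlap. The other 3 motifs stood in none of the 4 printed windows. A match is a description of the letters only.

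The comparison asks how proteasome transcripts differ between the upper layers and the epidermis as a whole. As deposited, 41 of the 47 tested genes were lower in ETA sheets, 1 was higher and 5 were not called (limma, Benjamini-Hochberg adjusted p under 0.05 over all tested genes). Of all 11683 tested genes 63.6% were lower and 10.1% higher, so most genes were lower in the background too. The median log2 fold change of the proteasome genes was -1.23, beside -1.34 for all tested genes. Since TPM values share a fixed total, the count of lower genes turns with the scaling: after each library was centred on its median gene, 6 proteasome genes were lower and 19 higher, beside 18.8% and 29.1% of all genes. Centring left the median of all tested genes at 0.16. With trimmed-mean scaling 6 were lower and 10 higher, beside 24.1% and 23.9%, and with the 100 most abundant genes taken out of the total 31 were lower and 1 higher, beside 53.0% and 13.1%. In these bulk samples fewer cells of a type and less RNA per cell cannot be told apart.

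The same 6 genes were lower as deposited, after centring and with trimmed-mean scaling: the alpha subunit Psma5, the activator subunits Psme1 and Psme2, the core chaperones Psmg2 and Psmg4, and Psmc3ip. The lid subunit Psmd8 was higher under all of these scalings. In 42 of the 47 genes the 3 ETA sheet libraries lay below the 3 epidermal sheet libraries without overlap, and in 1 they lay above, beside 66.0% and 10.9% of all tested genes. All proteasome genes together, without Psmc3ip, held 0.402 ± 0.065% of all TPM in the ETA sheet libraries, against 0.762 ± 0.031% in the epidermal sheet libraries (SD, n = 3 each). Without Psmd8 the shares were 0.323 ± 0.066% and 0.731 ± 0.028%. Because a scaling cannot alter the ratio of genes within a library, such ratios carry most of what follows.

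**Figure D1:**
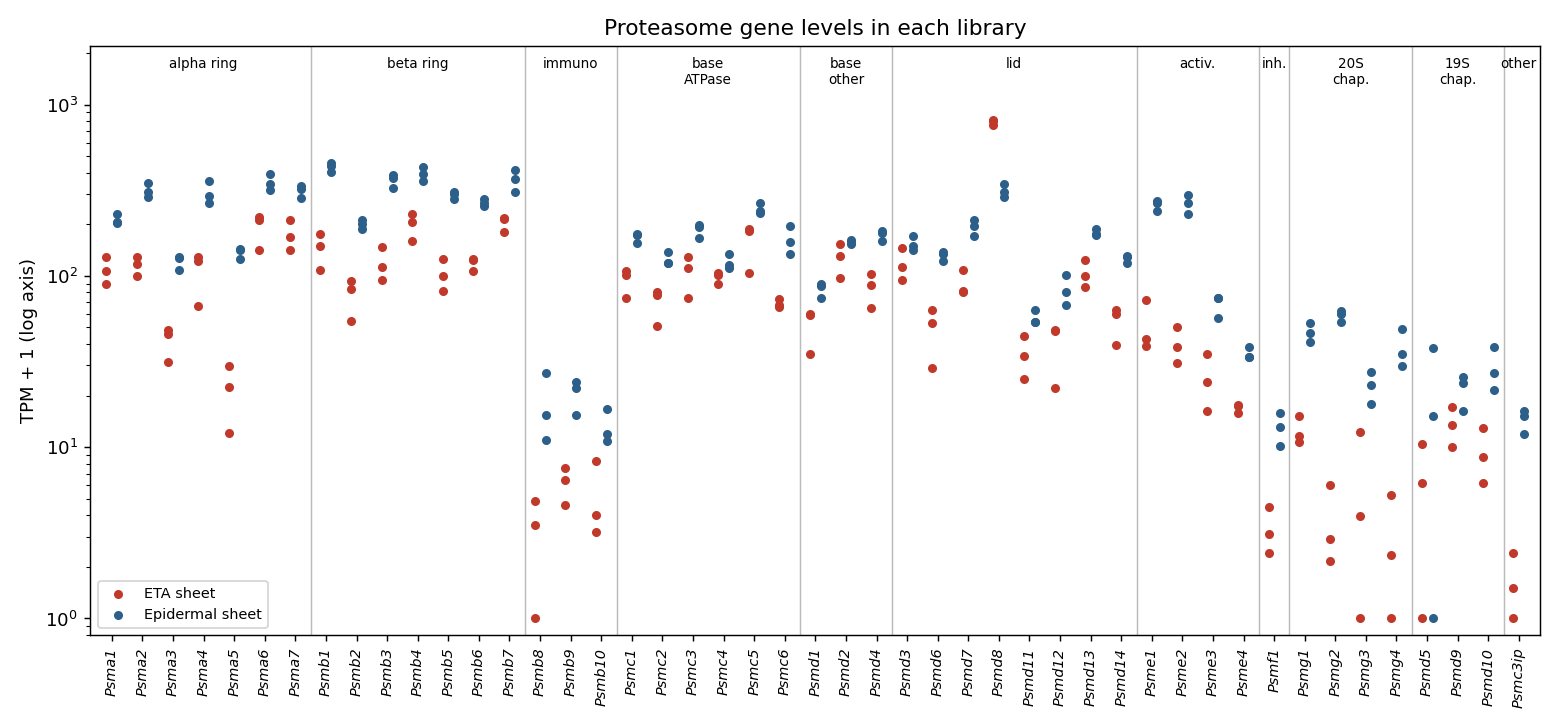
TPM + 1 of each tested proteasome gene on a log axis, 1 point per library, in ETA sheets (red) and epidermal sheets (blue), grouped by role in the complex. The points of Psmd8 lie at 757 to 811 TPM in ETA sheets, above 286 to 341 TPM in epidermal sheets; the red points of the constitutive core subunits and of Psmg1 to Psmg4 lie below the blue ones.

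Psmd8, which encodes the lid subunit Rpn12, stood apart from every other part of the complex. It had 757, 796 and 811 TPM in ETA sheets, against 307, 341 and 286 TPM in epidermal sheets. All 3 ETA sheet libraries were far above all 3 epidermal sheet libraries, and the libraries of each group lay close together. Psmd8 rose 2.53-fold (log2 fold change 1.34 ± 0.15 SE, limma adjusted p = 0.000127). Of all tested genes 7.31% had a higher log2 fold change. It was the most abundant proteasome transcript in each ETA sheet library, and ranked 6, 8 and 11 in the epidermal sheet libraries. With 1 library left out its log2 fold change ran from 1.28 to 1.41, and it was called each time. With the header names as groups it was 0.41 and not called.

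Within each library Psmd8 also left its neighbours in the lid. Its TPM was 12.1, 20.7 and 12.98 times the median of the 7 other lid subunits in ETA sheets, against 2.30, 2.65 and 2.10 times in epidermal sheets. These ranges were far apart. ETA sheet replicate 2 had the highest ratio, since the other lid subunits were lowest there while Psmd8 was not. The transcript has a single entry in the table, 3.43% of its 25-base words (the read length) recur in transcripts of other genes, and the annotation used here has no gene overlapping it. Its promoter window, printed above, holds 1 TGANNNNGC match, as does the printed window of Psme2.

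**Figure D2:**
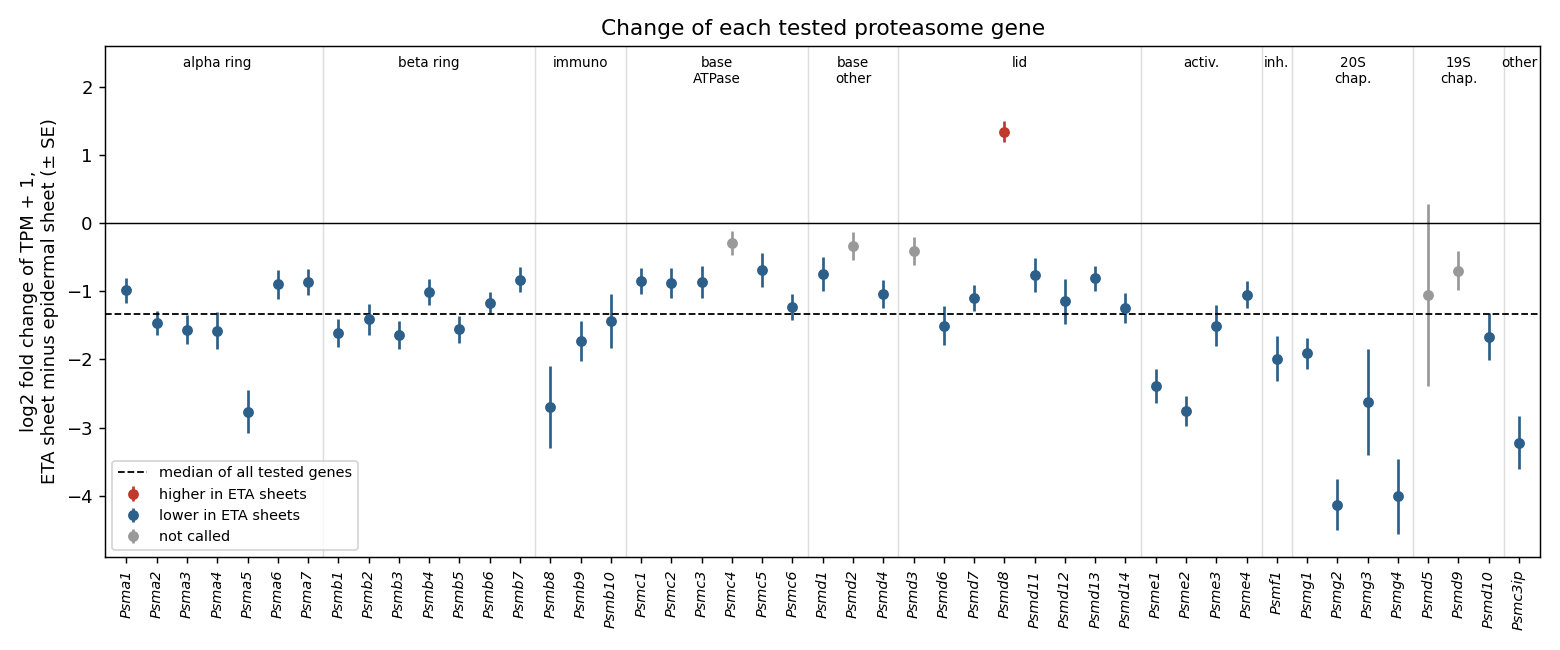
Log2 fold change of TPM + 1, ETA sheet minus epidermal sheet, with its SE for the 47 tested genes, grouped by role; the dashed line is the median of all tested genes at -1.34. Psmd8 at 1.34 is the single red point, the grey points are the 5 genes not called, and the chaperones Psmg2 and Psmg4 lie lowest.

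All 14 constitutive core subunits were lower in ETA sheets as deposited, beside 63.6% of all tested genes. Their median log2 fold change of -1.44 lay near the -1.34 of all tested genes. After centring 5 were higher, 1 lower and 8 not called, beside 29.1% of all genes higher and 18.8% lower. The alpha ring closes the barrel and controls entry. Its 7 tested subunits fell by a median of 1.46 on the log2 scale as deposited, whereas after centring 3 were higher and only Psma5 lower. Psma6, the most abundant, had 211, 141 and 219 TPM in ETA sheets, against 342, 391 and 316 TPM in epidermal sheets. Psma7, the least changed, had 209.7, 141 and 169 TPM, against 284, 335 and 319 TPM. For both genes the groups did not overlap, beside 66.0% of all tested genes lower without overlap. Both were called higher after centring (log2 0.60 and 0.63).

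Psma5 changed most. It had 28.8, 11.2 and 21.4 TPM in ETA sheets, against 141, 142 and 124 TPM in epidermal sheets (log2 fold change -2.76 ± 0.32 SE, limma adjusted p = 0.000131; -1.27 after centring, also called). Its level was 0.225, 0.119 and 0.171 of the median of the 6 other alpha subunits in ETA sheets. In epidermal sheets it was 0.514, 0.418 and 0.413 of that median. Psma5 was thus below the median of its ring partners in all 6 libraries, and further below it in every ETA sheet library. Of the 25-base words of Psma5, 67.1% recur in other genes, mostly in Gm8394, so reads could be divided between them and its value is uncertain. The other alpha subunits, Psma1 to Psma4, had log2 fold changes of -0.99, -1.46, -1.56 and -1.58. Psma3 and Psma4 share many of their 25-base words with other genes too (30.9% of the main Psma3 transcript and 44.6% for Psma4). Psma8 was listed at 0 in all 6 libraries.

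The beta ring carries the cutting sites. All 7 constitutive subunits fell as deposited, between 0.83 for Psmb7 and 1.64 for Psmb3 on the log2 scale, beside 63.6% of all genes lower. After centring 2 were higher, 5 not called and none lower, beside 29.1% of all genes higher and 18.8% lower. Psmb5, the chymotrypsin-like subunit, had 124, 80.5 and 99.2 TPM in ETA sheets, against 299, 279 and 307 TPM in epidermal sheets (log2 fold change -1.55 ± 0.20 SE, limma adjusted p = 0.000211). Psmb6, the caspase-like subunit, had 125, 105 and 123 TPM, against 281, 266 and 256 TPM (-1.18 ± 0.16 SE). Psmb7, the trypsin-like subunit, had 217, 178 and 215 TPM, against 367, 417 and 306 TPM (-0.83 ± 0.18 SE). The groups did not overlap for any of the 3 catalytic subunits, beside 66.0% of all tested genes lower without overlap. Psmb7 had the change nearest to 0.

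Psmb4, the most abundant structural beta subunit over all libraries, had 228, 159 and 207 TPM in ETA sheets, against 434, 395 and 359 TPM in epidermal sheets. Psmb3 had 147, 93.1 and 112 TPM, against 372, 386 and 327 TPM. For both genes the groups were again apart, beside 66.0% of all tested genes lower without overlap. Psmb5 and Psmb3 share 78.6% and 69.7% of their 25-base words with other genes, so their values are uncertain. Psmb1 and Psmb2 had log2 fold changes of -1.61 and -1.41.

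The rings moved together but their members spread. Summed alpha subunits were 78.5%, 74.3% and 82.0% of summed beta subunits in ETA sheets, against 68.0%, 80.5% and 78.8% in epidermal sheets, and these ranges overlap. The coefficient of variation of TPM among the 14 core subunits was 43.6%, 49.3% and 46.4% in ETA sheets, against 34.4%, 33.4% and 30.6% in epidermal sheets. Core subunit levels were therefore less even in every ETA sheet library. The highest core subunit had 7.89, 15.96 and 10.2 times the TPM of the lowest in ETA sheets, against 4.07, 3.56 and 3.24 times in epidermal sheets. In ETA sheets the lowest was Psma5 each time. The value of Psma5 is uncertain, as given above, and the spread without it is not given here.

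The immunoproteasome subunits were scarce in both kinds of sheet and scarcer in ETA sheets. Psmb8 had 3.85, 0 and 2.51 TPM in ETA sheets, against 26.1, 10.01 and 14.4 TPM in epidermal sheets (log2 fold change -2.69 ± 0.60 SE, limma adjusted p = 0.00384). Psmb9 had 6.58, 5.42 and 3.61 TPM, against 22.9, 14.5 and 21.1 TPM (-1.73 ± 0.30 SE, limma adjusted p = 0.000989). Psmb10 had 7.35, 3.03 and 2.21 TPM, against 15.7, 10.9 and 9.83 TPM (-1.44 ± 0.40 SE, adjusted p in limma = 0.0105). The groups did not overlap for any of the 3 genes, beside 66.0% of all tested genes lower without overlap. All 3 were called lower as deposited, beside 63.6% of all tested genes. None was called after centring (log2 -1.20, -0.24 and 0.05), beside 18.8% of all genes lower and 29.1% higher. Psmb11 was between 0 and 3.69 TPM in ETA sheets and between 0 and 0.404 TPM in epidermal sheets, and the groups overlap.

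As a share of each catalytic pair, which no scaling can move, Psmb8 held 3.01%, 0% and 2.47% of the TPM of Psmb8 and Psmb5 in ETA sheets, against 8.04%, 3.46% and 4.48% in epidermal sheets. Psmb9 held 4.996%, 4.89% and 2.85% of its pair with Psmb6, against 7.55%, 5.16% and 7.63%. For these pairs every ETA sheet library was lower than every epidermal sheet library, with a two-sided exact permutation p = 0.1, the smallest that 3 against 3 allow, and 0.15 after Benjamini-Hochberg adjustment over the 3 pairs. Psmb10 held 3.28%, 1.67% and 1.02% of its pair with Psmb7, against 4.10%, 2.56% and 3.12%; these overlap (exact permutation p = 0.3, adjusted 0.3). None of the 3 shares can pass a threshold of 0.05 in this design. Psmb8, Psmb9 and Psmb10 together stood at 0.8995%, 0.624% and 0.465% of the summed constitutive core in ETA sheets. In epidermal sheets they stood at 1.604%, 0.819% and 1.183%, so the groups overlap for the class as a whole.

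**Figure D3:**
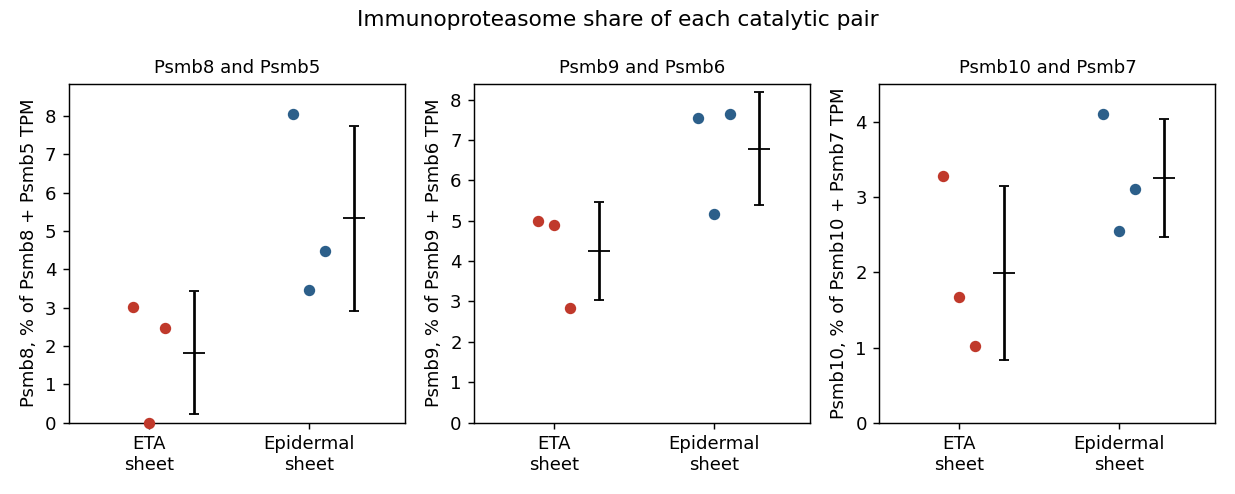
Share of the inducible subunit in the TPM of each catalytic pair, in percent, 1 point per library with the mean and SD beside it, for Psmb8 with Psmb5, Psmb9 with Psmb6 and Psmb10 with Psmb7. ETA sheets lie lower in the first pair of panels, at 0% to 3.01% and 2.85% to 4.996%, and the groups overlap in the third panel.

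Leukocytes hold immunoproteasomes, and their markers were also lower as deposited, as were 63.6% of all tested genes. Of 7 Langerhans cell markers (Cd207, Cd74, H2-Aa, H2-Ab1, H2-Eb1, Itgax and Csf1r) 6 were tested and all 6 were lower; the list summed to 37.3 to 72.5 TPM in ETA sheets, against 1199.8 to 1435 TPM in epidermal sheets. All 6 T cell markers (Cd3d, Cd3e, Cd3g, Cd247, Thy1 and Nkg7) were lower, with sums of 7.30 to 11.3 TPM, against 156 to 182 TPM. All 3 general leukocyte markers (Ptprc, Coro1a and Laptm5) were lower, with sums of 5.85 to 27.9 TPM, against 41.0 to 51.0 TPM. After centring 6 Langerhans cell markers, 3 T cell markers and 0 general leukocyte markers were lower, beside 18.8% of all genes. Itgax, Cd3d, Cd3e, Cd3g, Nkg7 and Laptm5 were listed at 0 in ETA sheet replicate 2, as was Psmb8. The part of these cells in the values of Psmb8, Psmb9, Psmb10, Psme1 and Psme2 was not tested. Melanocyte markers summed to 0.633 to 1.66 TPM in ETA sheets, against 36.8 to 40.3 TPM, and fibroblast markers to 55.8 to 66.6 TPM, against 7.04 to 10.8 TPM, while the suprabasal, endothelial and skeletal muscle sums overlapped between the groups.

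The activators open the gate of the core in place of the 19S cap. All 4 tested members fell as deposited, with a median of -1.95, beside a median of -1.34 and 63.6% lower for all tested genes. After centring 2 were lower and none higher, beside 18.8% and 29.1% of all genes. Psme1, which encodes PA28 alpha, had 71.3, 37.8 and 42.1 TPM in ETA sheets, against 239.7, 271 and 264 TPM in epidermal sheets (log2 fold change -2.39 ± 0.25 SE, limma adjusted p = 8.72e-05; -0.90 after centring, also called). Its partner Psme2, which encodes PA28 beta, had 49.0, 30.1 and 37.4 TPM, against 230.3, 265 and 295 TPM (-2.75 ± 0.22 SE, limma adjusted p = 3.07e-05; -1.26 after centring, also called). For both the highest ETA sheet value lay far below the lowest epidermal sheet value. Psme2 shares 69.4% of its 25-base words with other genes, nearly all with Psme2b, so its value is uncertain. Psme2b had at most 1.12 TPM in any library, though reads could be divided between it and Psme2. Of the 25-base words of Psme1, 26.1% recur elsewhere.

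Psme1 and Psme2 together stood at 6.09%, 5.02% and 4.43% of the summed core in ETA sheets, against 11.6%, 12.4% and 14.6% in epidermal sheets, so the pair was lower relative to the core it binds in every ETA sheet library. Psme1 and Psme2 are induced by interferon-gamma together with Psmb8, Psmb9 and Psmb10. All 5 of these genes were lower as deposited, with a median log2 fold change of -2.39, beside a median of -1.34 and 63.6% lower for all tested genes. After centring 2 were lower, 3 not called and none higher, beside 18.8% of all genes lower and 29.1% higher.

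Psme3, which encodes the nuclear activator PA28 gamma, had 34.0, 15.2 and 23.0 TPM in ETA sheets, against 55.4, 73.1 and 73.2 TPM in epidermal sheets (log2 fold change -1.50 ± 0.30 SE, limma adjusted p = 0.00203). Psme4, which encodes the activator PA200, had 16.7, 14.8 and 16.4 TPM, against 32.5, 32.6 and 37.5 TPM (-1.05 ± 0.20 SE, limma adjusted p = 0.00163). Neither was called after centring (-0.0085 and 0.44), though the groups did not overlap, beside 66.0% of all tested genes lower without overlap. Psmf1, which encodes the inhibitor PI31, had 3.46, 1.43 and 2.10 TPM, against 12.03, 9.14 and 14.9 TPM (-1.99 ± 0.33 SE, limma adjusted p = 0.000876; -0.49 after centring, not called). Psme2 was 1.44, 1.98 and 1.63 times Psme3 in ETA sheets, against 4.15, 3.63 and 4.03 times in epidermal sheets.

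The 19S cap kept more of its level than the core. Of the 17 base and lid subunits 13 were lower, 1 higher and 3 not called as deposited, with a median of -0.85, beside 63.6% and 10.1% of all genes lower and higher. After centring 13 were higher and none lower, beside 29.1% and 18.8%. Without Psmd8, the summed cap stood at 79.7%, 75.1% and 77.7% of the summed core in ETA sheets, against 54.2%, 56.2% and 62.0% in epidermal sheets. With Psmd8 the ratio was 118%, 134% and 123%, against 61.8%, 64.1% and 69.4%. The groups did not overlap with or without Psmd8.

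The 6 ATPases of the base form the ring that pulls the substrate into the core. Their sum stood at 34.2%, 33.5% and 35.3% of the summed core in ETA sheets, against 23.4%, 24.9% and 25.8% in epidermal sheets, a difference far beyond the spread within either group. As deposited 5 of the 6 were lower and Psmc4 was not called, beside 63.6% of all genes lower. After centring 5 were higher and Psmc6 was not called, beside 29.1% of all genes higher. Psmc4 had 103, 88.9 and 100.2 TPM in ETA sheets, against 115, 134 and 110.4 TPM in epidermal sheets (log2 fold change -0.29 ± 0.17 SE, limma adjusted p = 0.152).

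Psmc5, the most abundant ATPase transcript, had 188, 102 and 181 TPM in ETA sheets, against 239, 265 and 232 TPM in epidermal sheets (-0.69 ± 0.25 SE, adjusted p in limma = 0.0338). Its call was lost without ETA sheet replicate 2, where the change shrank (log2 -0.41). The call was also lost without epidermal sheet replicate 1, 2 or 3 (-0.71, -0.63 and -0.73), where the change stayed near -0.69. Psmc6 had 72.0, 66.2 and 64.8 TPM, against 134, 195 and 157 TPM (-1.23 ± 0.19 SE, limma adjusted p = 0.000622). Psmc6 was the ATPase with the lowest log2 fold change and had the tightest ETA sheet values of the 6. Psmc1, Psmc2 and Psmc3 had log2 fold changes of -0.85, -0.87 and -0.86, and Psmc1 shares 48.2% of its 25-base words with other genes.

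The other base subunits are scaffolds and a ubiquitin receptor. Psmd2, which encodes the scaffold Rpn1, had 153, 95.9 and 129 TPM in ETA sheets, against 158, 160.2 and 152 TPM in epidermal sheets (log2 fold change -0.34 ± 0.20 SE, adjusted p in limma = 0.162). Its groups overlap. Leaving out ETA sheet replicate 1 made it pass as lower (log2 -0.49), whereas centring of all 6 libraries made it pass as higher (1.15). Of the 25-base words of Psmd2, 53.1% recur in other genes, mostly in Gm5422, so its value is uncertain. With a further Psmd2 transcript that has no symbol added, it had 157, 104 and 130 TPM, against 158, 168 and 152 TPM, and was again not called. Psmd1, the scaffold Rpn2, had a log2 fold change of -0.75 (limma adjusted p = 0.0242), and its call was lost without epidermal sheet replicate 2 or 3 (-0.71 and -0.70). Psmd4, the ubiquitin receptor Rpn10, had 101, 63.9 and 87.7 TPM, against 159, 176 and 181 TPM (-1.04 ± 0.21 SE, limma adjusted p = 0.00211; 0.45 after centring, called higher). Both listed Psmd4 transcripts were lower, with 29.1 to 43.2 TPM for one and 34.8 to 57.7 TPM for the other in ETA sheets, against 70.2 to 81.3 TPM and 88.6 to 104 TPM in epidermal sheets.

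The lid subunits of the naming rule had a summed TPM of 1345, 1166 and 1297 in ETA sheets, against 1161, 1274 and 1250 in epidermal sheets, and the groups overlap. Without Psmd8 they did not, and the lid had 588, 369.8 and 486 TPM in ETA sheets, against 854, 932 and 964 TPM in epidermal sheets. Relative to the base, the lid without Psmd8 stood at 59.5%, 57.1% and 53.5% in ETA sheets, against 64.1%, 62.2% and 68.3% in epidermal sheets, slightly lower with no overlap. These sums leave out Sem1, an abundant lid subunit outside the naming rule. Sem1 had 587, 481 and 638 TPM in ETA sheets, against 749, 792 and 715 TPM in epidermal sheets. The lower ratio therefore holds only for the subunits of the naming rule.

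Of the 7 other lid subunits of the rule 6 were lower as deposited and Psmd3 was not called, beside 63.6% of all genes lower. After centring 4 were higher and none lower, beside 29.1% and 18.8% of all genes. Psmd3, which encodes Rpn3, had 145, 93.2 and 111 TPM in ETA sheets, against 140.5, 171 and 149 TPM in epidermal sheets (log2 fold change -0.41 ± 0.21 SE, adjusted p in limma = 0.103). The groups overlap. Psmd3 passed as lower with ETA sheet replicate 1 left out (log2 -0.58), and as higher after centring of all 6 libraries (1.08). Psmd6, which encodes Rpn7, had the lowest log2 fold change of the 7 (-1.51 ± 0.29 SE, limma adjusted p = 0.00175). Its values were 62.6, 28.1 and 52.4 TPM, against 134, 121 and 136 TPM. Psmd14, the deubiquitinase of the lid, had 58.7, 38.5 and 62.5 TPM, against 117, 129 and 128 TPM (-1.24 ± 0.22 SE, adjusted p in limma = 0.00119). Its partner Psmd7 had a log2 fold change of -1.10, and Psmd11, Psmd12 and Psmd13 had -0.76, -1.14 and -0.81. Psmd11 lost its call without ETA sheet replicate 3 or epidermal sheet replicate 2 (-0.77 and -0.68), and Psmd12 without epidermal sheet replicate 3 (-0.99).

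**Figure D4:**
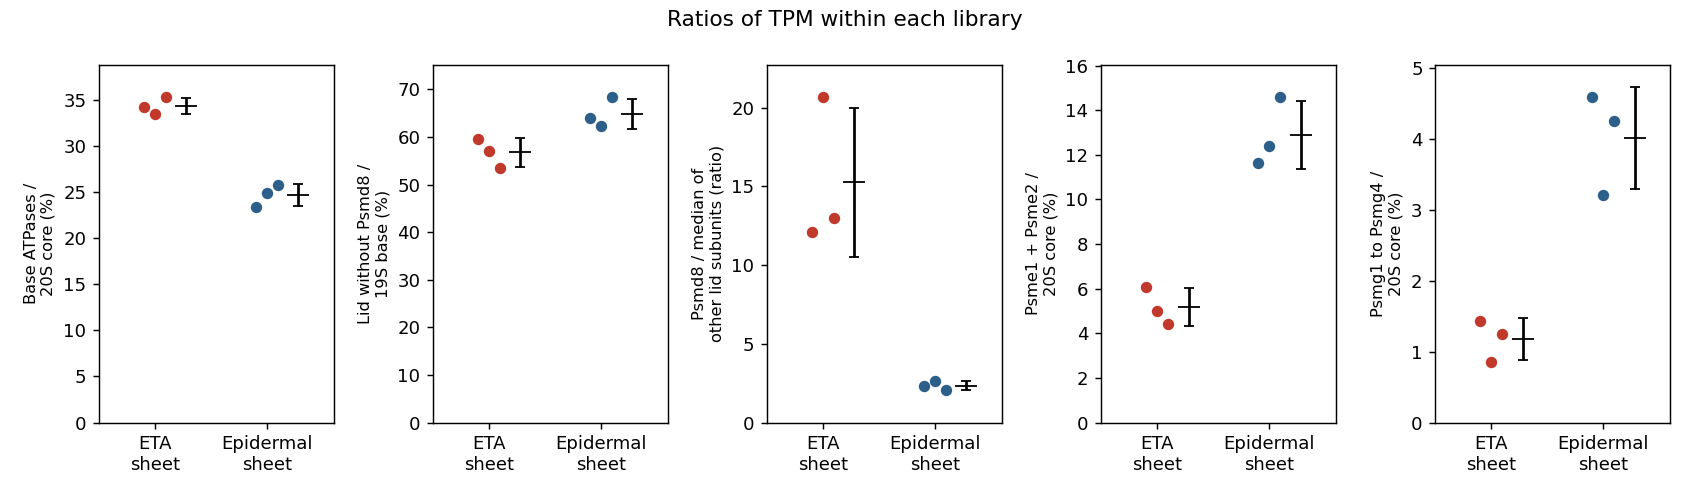
Ratios of TPM within each library, 1 point per library with the mean and SD beside it: summed base ATPases over the summed core, lid without Psmd8 over base, Psmd8 over the median of the 7 other lid subunits, Psme1 and Psme2 over core, and Psmg1 to Psmg4 over core. ATPases and Psmd8 are higher in ETA sheets and the other 3 ratios are lower, with no overlap in any panel. Lid and base hold only subunits of the naming rule.

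Of the classes under the naming rule, the chaperones that assemble the core had the lowest median log2 fold change. Pomp, the maturation factor of the core outside that rule, had -1.77 and is given below. All 4 chaperones of the class were lower as deposited, with a median log2 fold change of -3.32, beside a median of -1.34 and 63.6% lower for all tested genes. After centring 2 were lower and 2 not called, beside 18.8% of all genes lower. Psmg2 had 5.02, 1.90 and 1.15 TPM in ETA sheets, against 58.8, 52.8 and 61.5 TPM in epidermal sheets (log2 fold change -4.13 ± 0.37 SE, limma adjusted p = 4.82e-05; -2.63 after centring, also called). Its partner Psmg1 had 10.7, 9.68 and 14.1 TPM, against 51.8, 40.0 and 45.2 TPM (-1.91 ± 0.23 SE, limma adjusted p = 0.000164; -0.41 after centring, not called). The proteins of this pair work as 1 complex, and their transcripts, near each other in level in epidermal sheets, differed more in ETA sheets.

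Psmg4 had 1.35, 0 and 4.23 TPM in ETA sheets, against 48.0, 29.0 and 34.1 TPM in epidermal sheets (-4.01 ± 0.55 SE, limma adjusted p = 0.00031; -2.52 after centring, also called). Psmg3, its partner, had 11.3, 0 and 2.96 TPM, against 26.6, 16.8 and 22.2 TPM (-2.62 ± 0.77 SE, limma adjusted p = 0.0143; -1.13 after centring, not called). Both were listed at 0 in ETA sheet replicate 2, and the other ETA sheet libraries also lay below all epidermal sheet libraries. The 4 chaperones together stood at 1.44%, 0.855% and 1.25% of the summed core in ETA sheets, against 4.59%, 3.20% and 4.25% in epidermal sheets. Of all tested genes 98.8% had a higher log2 fold change than Psmg2, and 98.6% a higher one than Psmg4.

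The chaperones of the 19S base were less uniform, with 1 of 3 lower and 2 not called as deposited, and 1 higher after centring. Of all genes 63.6% were lower as deposited and 29.1% higher after centring. Psmd10, which encodes gankyrin, had 11.9, 7.72 and 5.18 TPM in ETA sheets, against 20.5, 25.9 and 37.5 TPM in epidermal sheets (log2 fold change -1.67 ± 0.34 SE, limma adjusted p = 0.00243). Psmd9 had 16.2, 9.07 and 12.5 TPM, against 15.3, 24.7 and 22.7 TPM, with overlapping groups (-0.70 ± 0.29 SE, limma adjusted p = 0.0573). Psmd9 passed as lower without ETA sheet replicate 1 or epidermal sheet replicate 1 (log2 -0.88 and -0.89), and as higher after centring of all 6 libraries (0.80).

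Psmd5 had 9.42, 0 and 5.22 TPM in ETA sheets, against 37.0, 0 and 14.3 TPM in epidermal sheets, and was not called (-1.05 ± 1.33 SE, adjusted p in limma = 0.489). The table holds another Psmd5 transcript with no symbol, which its RefSeq accession names. With it, Psmd5 had 9.42, 5.69 and 5.23 TPM, against 37.0, 34.5 and 32.0 TPM, and was called lower (-2.23 ± 0.26 SE, adjusted p in limma = 0.00011). The zeros of the named transcript were therefore filled by its unnamed partner in both groups. Psmg3 likewise had 11.3, 5.63 and 2.96 TPM, against 26.6, 32.6 and 22.2 TPM, once its unnamed transcript was added (-2.02 ± 0.40 SE). Psmc3ip, which is no proteasome part, had 1.40, 0 and 0.514 TPM, against 14.1, 15.2 and 11.0 TPM (-3.22 ± 0.38 SE, limma adjusted p = 0.000157).

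Other genes of the pathway, from a list of 32 outside the naming rule, moved less as deposited. Of the 31 analysed, 2 were higher, 14 lower and 15 not called, with a median log2 fold change of -0.44, against -1.34 for all tested genes, of which 10.1% were higher and 63.6% lower. After centring 19 were higher and 2 lower, beside 29.1% and 18.8% of all genes. Ubb, which encodes a chain of ubiquitin units, had 898, 1083 and 1034 TPM in ETA sheets, against 1546, 1464 and 1289 TPM in epidermal sheets (log2 fold change -0.51 ± 0.16 SE, limma adjusted p = 0.0187; 0.98 after centring, called higher). Rps27a, which encodes ubiquitin fused to a ribosomal protein, had 861, 661 and 574 TPM, against 3692, 3305 and 3655 TPM (-2.36 ± 0.19 SE, limma adjusted p = 2.83e-05; -0.87 after centring, also called). For both genes the groups did not overlap, beside 66.0% of all tested genes lower without overlap. Centring turned the direction of Ubb but not of Rps27a. The call of Ubb as lower was lost without epidermal sheet replicate 1 or 2 (-0.45 and -0.49).

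Zfand2a, which encodes a proteasome-associated zinc finger protein induced by arsenite, had 33.2, 44.9 and 39.5 TPM in ETA sheets, against 12.3, 15.7 and 10.7 TPM in epidermal sheets (log2 fold change 1.54 ± 0.23 SE, limma adjusted p = 0.00052). With only its largest transcript the call was lost (2.48). Ddi2 and Ngly1 act on the factor encoded by Nfe2l1, which drives subunit genes when the proteasome is impaired. Ddi2, the protease that cuts it, had 59.1, 44.0 and 54.7 TPM, against 27.0, 30.6 and 31.3 TPM (0.80 ± 0.20 SE, limma adjusted p = 0.0068). Ngly1, which removes its sugar chains, had 11.0, 4.74 and 6.31 TPM, against 34.0, 37.3 and 37.0 TPM (-2.22 ± 0.30 SE, limma adjusted p = 0.00028; -0.73 after centring, also called). These enzymes thus stood on opposite sides, while Nfe2l1 itself, named after its values were seen, was not called at 82.9 to 159.9 TPM, against 141 to 164 TPM (log2 fold change -0.45, limma adjusted p = 0.134). Nfe2l1 passed as lower with ETA sheet replicate 1 left out (-0.72), and as higher after centring of all 6 libraries (1.04).

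Ublcp1, a phosphatase of the nuclear proteasome, had 9.68, 4.14 and 7.20 TPM in ETA sheets, against 21.4, 35.5 and 35.6 TPM in epidermal sheets (-2.02 ± 0.34 SE, adjusted p in limma = 0.000884; -0.52 after centring, not called). The groups did not overlap. A further 4 genes were chosen after their values were seen. Adrm1, the ubiquitin receptor Rpn13 of the cap, had 161, 135 and 165 TPM, against 149.6, 162 and 121 TPM (0.09 ± 0.19 SE, limma adjusted p = 0.655). Sem1, the smallest lid subunit, had 587, 481 and 638 TPM, against 749, 792 and 715 TPM (-0.41 ± 0.17 SE, limma adjusted p = 0.0522). Both subunits escape the naming rule, neither was called, and both were called higher after centring (1.59 and 1.08). With ETA sheet replicate 1 left out Sem1 passed as lower (-0.44).

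Vcp, the p97 ATPase that hands substrates to the proteasome, had 179.7, 145 and 159.9 TPM in ETA sheets, against 191, 221 and 216 TPM in epidermal sheets (-0.38 ± 0.17 SE, limma adjusted p = 0.0722), and was called higher after centring (1.12). With ETA sheet replicate 1 left out it passed as lower (-0.46). Pomp, the maturation factor of the core, had 121, 64.8 and 103 TPM, against 312, 288 and 361 TPM (-1.77 ± 0.25 SE, limma adjusted p = 0.000346; -0.27 after centring, not called). Of the 10 shuttle and p97 genes, with Vcp among them, 3 were lower and 7 not called as deposited, beside 63.6% of all genes lower. After centring 8 of the 10 were higher and none lower, beside 29.1% and 18.8% of all genes.

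**Figure D5:**
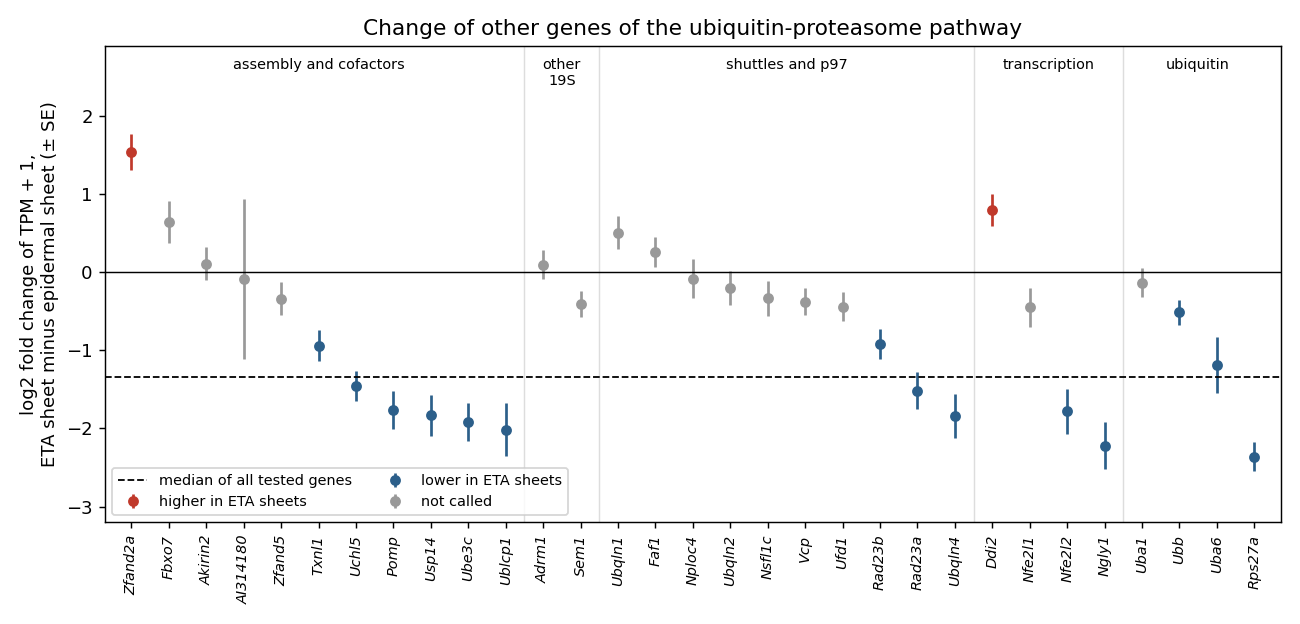
Log2 fold change of TPM + 1, ETA sheet minus epidermal sheet, with its SE for 31 pathway genes outside the naming rule, grouped by role; the dashed line is the median of all tested genes at -1.34. Zfand2a and Ddi2 are the 2 genes called higher, and Rps27a lies lowest at -2.36.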

How the data were processed

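Total RNA of mouse ear epidermis was made into directional libraries and read as paired reads of 25 bp, per the labels' protocols. The submitters' processing notes name Salmon, Bowtie2 and mm9, without versions or roles; the annotation is not given in the sources used here. The authors deposited TPM for 37903 transcripts in 1 table, of which 7951 had no symbol. Each column was matched to the sample whose title has the same library number.

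The sums of TPM per symbol that averaged 1 or more entered limma 3.58.1 (R 4.3.3) as log2(TPM + 1), with a variance trend and Benjamini-Hochberg adjustment over 11683 genes. On this scale, used for all log2 fold changes, changes of low genes come out too small; folds are ratios of mean TPM. The fit was tested on simulated data. Sums and ratios were computed with pandas 2.3.3 and numpy 2.4.6 (Python 3.11.15), exact permutation tests with scipy 1.17.1, and figures with matplotlib 3.10.9. Recurring 25-base words and overlapping genes were counted in an annotation of GRCm38, another build than mm9.

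Members, lists and alternatives were chosen with earlier results of these data known. Named are, per class, the most abundant member and those of highest and lowest log2 fold change, the catalytic subunits, the activators and inhibitor, and every member called higher or not called. The pathway list adds its 3 most abundant genes and up to 3 called at each end. Nfe2l1, Adrm1, Sem1, Vcp and Pomp, and the other members given with values, were picked with their values known. Paaf1, on the pathway list, was not analysed here, and some other pathway genes are not reported here. Alternatives were other scalings, filters and pseudocounts, library weights, a replicate block, a fit with no variance trend, the largest transcript, symbols filled by accession, header names as groups, and each library left out.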

Additional observations from a re-analysis of the deposited data

How the results depend on the processing

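Scaling had the widest effect, and no depth is kept in TPM, so counting error could not be given. After median centring 6 proteasome genes were lower and 19 higher, and in the pathway list 2 and 19, beside 18.8% and 29.1% of all genes. With trimmed-mean scaling the counts were 6 and 10, and 3 and 17, beside 24.1% and 23.9% of all genes. Without the 100 most abundant genes 12 pathway genes were lower and 7 higher, beside 53.0% and 13.1% of all genes. The median log2 fold change of the proteasome genes was then 0.26 after centring, 0.21 with trimmed-mean scaling and -0.82 without the 100 genes. Minus the median of all genes, it was 0.37 with trimmed-mean scaling, 0.37 at a pseudocount of 0.1 TPM, -0.33 at 5 TPM and -0.46 with no filter, and it ran from -0.046 without ETA sheet replicate 3 to 0.14 with 1 library left out, so its sign depends on these choices. The cause was not tested.

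Ratios of summed TPM, ETA sheet over epidermal sheet, were with trimmed-mean scaling: alpha ring 1.20, beta ring 1.15, immunoproteasome beta 0.624, base ATPase 1.64, base non-ATPase 1.76, lid 2.89, activators and inhibitor 0.570, 20S chaperone 0.351 and 19S chaperone 1.05. Without the 100 most abundant genes they were: alpha ring 0.579, beta ring 0.556, base ATPase 0.789, base non-ATPase 0.851, lid 1.40 and activators and inhibitor 0.280.

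Among the proteasome genes and the 11 pathway genes given with values, log2 fold changes that turned after median centring were: Psma1 0.51, Psma2 0.035, Psma6 0.60, Psma7 0.63, Psmb2 0.081, Psmb4 0.48, Psmb6 0.32, Psmb7 0.67, Psmb10 0.054, Psmc1 0.65, Psmc2 0.62, Psmc3 0.63, Psmc4 1.20, Psmc5 0.81, Psmc6 0.26, Psmd1 0.75, Psmd2 1.15, Psmd4 0.45, Psmd3 1.08, Psmd7 0.39, Psmd11 0.73, Psmd12 0.35, Psmd13 0.68, Psmd14 0.25, Psme4 0.44, Psmd5 0.44, Psmd9 0.80, Sem1 1.08, Nfe2l1 1.04, Vcp 1.12 and Ubb 0.98. Those that turned with trimmed-mean scaling were: Psma1 0.47, Psma2 0.0049, Psma6 0.57, Psma7 0.60, Psmb2 0.047, Psmb4 0.46, Psmb6 0.29, Psmb7 0.64, Psmc1 0.61, Psmc2 0.58, Psmc3 0.60, Psmc4 1.16, Psmc5 0.78, Psmc6 0.23, Psmd1 0.70, Psmd2 1.12, Psmd4 0.42, Psmd3 1.05, Psmd7 0.36, Psmd11 0.68, Psmd12 0.30, Psmd13 0.65, Psmd14 0.21, Psme4 0.36, Psmd9 0.69, Sem1 1.06, Nfe2l1 1.01, Vcp 1.09 and Ubb 0.96. Without the 100 most abundant genes these turned: Psmc4 0.14, Psmd2 0.094, Psmd3 0.022, Sem1 0.026 and Vcp 0.059.

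With the header names as groups 0 genes were called in either list and direction, the proteasome median was -0.57, Adrm1 was -0.17, and the ratios of sums were: alpha ring 0.694, beta ring 0.662, immunoproteasome beta 0.527, base ATPase 0.770, base non-ATPase 0.791, lid 0.983, activators and inhibitor 0.649, 20S chaperone 0.560 and 19S chaperone 0.709. With library weights, which rest mostly on ETA sheet replicate 3 (weight 5.37, against 0.370 and 0.341 for the other ETA sheet libraries), 4 pathway genes were higher. With 1 library left out 38 to 44 proteasome genes were lower and 1 higher. Psmd5 then ran from -2.58 to 0.040 (without epidermal sheet replicate 1), and Adrm1 from -0.024 (without epidermal sheet replicate 3) to 0.18. Psmd5 passed as lower without epidermal sheet replicate 2. Psmc5 also lost its call with no filter and with no variance trend, Ubb with no variance trend, and Psmg3 at a pseudocount of 0.1 TPM. With library weights Psmd3, Psmd9, Nfe2l1 and Vcp passed as lower, as did Psmd9 at a pseudocount of 5 TPM.

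Same-numbered sheets did not deviate together (correlations of 0.019, -0.030 and -0.044). With so few libraries per group this cannot show whether they came from the same animal, so any pairing stays unknown. With the replicate block 41 proteasome genes were again lower and 1 higher.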
